A study of Rattus norvegicus with 6 samples.

Results

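The genes described here encode the lysosome's digestive enzymes, its membrane proteins and the subunits of its proton pump. They were chosen as rat genes whose symbol starts with Atp6v or Lamp, or is 1 of a fixed set of lysosomal symbols such as Ctsb, Hexa, Asah1 and Cd63. In the gene table used for names, 64 symbols fitted this choice, 59 of them protein coding and 5 pseudogenes. A probe of the array carried 44 of these symbols, and 40 were bright enough to be measured, out of 21847 genes or unnamed probes tested. Lamp3, Lamp5, Atp6v1c2 and Atp6v1g2 had probes that were too dim on most arrays, and 20 symbols, among them Gla, Glb1, Naglu, Galns, Npc1, Mcoln1, Atp6v1a and Atp6v0b, had no probe named by this route.

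Bone marrow cells came from male rats aged 8 weeks, were kept in osteogenic culture and were collected on day 10. In the control group (3 samples) the cells had no treatment, and in the other group (3 samples) they were exposed to low-intensity pulsed ultrasound (LIPUS), which delivers short bursts of sound waves as a mechanical load. Cy3-labelled RNA of each sample was put on a single-colour Agilent array, on which 53.5% to 61.9% of probes were above background and 322 to 474 were at the scanner limit. Whether replicates are separate animals or separate cultures is not stated in the labels, so p-values cover only the spread between these samples, which may be technical.

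Lysosomes are acid compartments in which cells break down proteins, sugar chains and lipids that arrive by endocytosis, phagocytosis or autophagy. The vacuolar proton pump (V-ATPase), built from a cytosolic V1 sector that splits ATP and a membrane V0 sector that carries protons, keeps the lumen acid for the hydrolases. Macrophages are rich in lysosomes, osteoclasts send the pump and Cathepsin K to the bone surface, and the transcription factor TFEB and its relatives bind a short palindrome in the promoters of many lysosomal genes.

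That palindrome, TCACGTGA, its core CACGTG (which lies inside it, so the matches overlap) and the near relative TCATGTGA were searched on both strands of the 300 bases from 250 before to 50 after each gene's start, in RefSeq promoters of assembly GRCr8. Of the 40 measured genes, 28 had a promoter in the table. TCACGTGA lay in 4 of the 28 (14.3%) and in 260 of all 33469 promoters (0.777%). CACGTG lay in 6 of the 28 (21.4%) against 6.42% of all promoters, and TCATGTGA in 3 (10.7%) against 1.16%. The 4 promoters with TCACGTGA are printed 5′ to 3′ with every match in capitals, followed in lower case by those of the 3 genes that passed the test, Ctsc, Ctsz and Smpd1, none of which holds a match in this window. A match describes letters only, and no match says nothing about any factor.
Lamp1 (chr16:83075014-83075313, minus strand): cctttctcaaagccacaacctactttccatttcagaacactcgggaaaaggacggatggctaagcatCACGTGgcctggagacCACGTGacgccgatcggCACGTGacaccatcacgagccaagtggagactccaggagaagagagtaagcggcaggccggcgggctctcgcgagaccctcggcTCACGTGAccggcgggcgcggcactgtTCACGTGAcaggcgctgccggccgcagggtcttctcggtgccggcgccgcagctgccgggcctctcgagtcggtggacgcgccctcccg
Ctsd (chr1:206968772-206969071, minus strand): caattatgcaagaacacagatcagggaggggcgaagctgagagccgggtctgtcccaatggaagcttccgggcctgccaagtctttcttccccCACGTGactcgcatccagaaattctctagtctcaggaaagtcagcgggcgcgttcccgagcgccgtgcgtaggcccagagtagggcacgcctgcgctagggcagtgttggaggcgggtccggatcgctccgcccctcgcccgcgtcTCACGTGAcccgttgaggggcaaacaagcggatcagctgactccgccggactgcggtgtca
Atp6v0d1 (chr19:50357199-50357498, minus strand): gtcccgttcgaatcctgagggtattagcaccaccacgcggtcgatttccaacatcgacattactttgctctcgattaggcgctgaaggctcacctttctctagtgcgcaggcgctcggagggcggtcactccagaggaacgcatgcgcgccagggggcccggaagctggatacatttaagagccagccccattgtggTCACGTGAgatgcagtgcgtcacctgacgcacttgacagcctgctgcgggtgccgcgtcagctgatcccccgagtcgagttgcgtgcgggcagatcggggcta
Atp6v0e1 (chr10:17007107-17007406, minus strand): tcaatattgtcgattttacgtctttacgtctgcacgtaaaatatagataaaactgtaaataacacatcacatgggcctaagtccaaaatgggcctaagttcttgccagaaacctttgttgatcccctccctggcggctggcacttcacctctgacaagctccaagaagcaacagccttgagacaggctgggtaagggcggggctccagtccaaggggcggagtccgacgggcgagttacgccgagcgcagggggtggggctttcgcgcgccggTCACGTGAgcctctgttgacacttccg
Ctsc (chr1:151440799-151441098, plus strand): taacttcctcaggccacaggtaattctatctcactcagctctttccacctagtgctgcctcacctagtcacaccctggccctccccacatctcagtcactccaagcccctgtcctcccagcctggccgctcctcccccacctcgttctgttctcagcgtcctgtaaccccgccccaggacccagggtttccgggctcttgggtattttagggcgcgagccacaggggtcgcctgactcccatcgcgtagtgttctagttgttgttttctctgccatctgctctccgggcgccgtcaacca
Ctsz (chr3:183653798-183654097, minus strand): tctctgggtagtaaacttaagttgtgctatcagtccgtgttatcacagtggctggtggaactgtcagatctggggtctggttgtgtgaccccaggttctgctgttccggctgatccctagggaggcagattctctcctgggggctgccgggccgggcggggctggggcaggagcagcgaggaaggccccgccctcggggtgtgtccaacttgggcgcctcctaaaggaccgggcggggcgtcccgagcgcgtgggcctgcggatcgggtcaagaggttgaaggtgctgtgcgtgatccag
Smpd1 (chr1:169304522-169304821, plus strand): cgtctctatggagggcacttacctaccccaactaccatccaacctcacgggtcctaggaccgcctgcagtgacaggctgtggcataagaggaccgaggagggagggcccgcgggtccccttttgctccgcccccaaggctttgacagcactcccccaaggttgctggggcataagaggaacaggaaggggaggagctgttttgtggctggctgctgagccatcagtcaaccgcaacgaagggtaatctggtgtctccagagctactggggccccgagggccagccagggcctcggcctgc

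Lamp1, which encodes the most abundant protein of the lysosomal membrane, held CACGTG 5 times, at 183, 167, 150, 65 and 38 bases before the start, and 2 of these were full TCACGTGA sites. The core lay 157 and 10 bases before the start of Ctsd, 52 before that of Atp6v0d1 and 25 after that of Atp6v0e1. Gaa and Cd63 held the core without the full site, and Cd63, Tpp1 and Atp6v0c held TCATGTGA. Of the 8 genes with any of the 3 motifs none was called different between the groups, their median log2 change (LIPUS minus control) was 0.06, and the changes ran from −0.31 to 0.41. Of the 20 with none, 3 were called and the median was −0.09, with a range of −0.75 to 0.68. Of all genes tested, 6.63% were called in the spot intensities and 3.68% in the authors' value table, both described below (limma). At such shares 8 genes are too few for 0 calls to set them apart. A link between motif and change was not tested.

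Of the measured genes, a pair of proteases and a lipid enzyme differed between LIPUS and control, and no proton pump subunit, glycosidase or membrane protein passed the test. Ctsc and Ctsz were lower in the LIPUS samples, by 1.68-fold and 1.56-fold, and Smpd1 was 1.61-fold higher (limma, Benjamini-Hochberg adjusted p of 0.0183, 0.0389 and 0.0268). Levels are log2 values relative to each array's 75th percentile, so they are compared between arrays for 1 gene and not between genes. In bulk samples, fewer cells of a type and less RNA per cell cannot be told apart.

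A total of 33 of the 40 genes were taken from the spot intensities, and 7 whose spots reached the scanner's upper limit from the value table that the authors deposited. Among the 33, 1 was called higher (3.03%) and 2 lower (6.06%) at an adjusted p under 0.05, against 2.89% and 3.74% (6.63% in either direction) of all genes tested. Among the 7 none was called, against 1.31% higher and 2.37% lower (3.68% in either direction) in the value table, while 1 of the 7 had an unadjusted p under 0.05 (limma). The shares called are thus near those of all genes. The control and LIPUS values did not overlap, with LIPUS lower, for 8 of the 33 (24.2%) and 2 of the 7 (28.6%), against 12.7% and 14.5% of all genes. They did not overlap with LIPUS higher for 1 of the 33 (3.03%) and 1 of the 7 (14.3%), against 14.4% and 14%. Over all 40, 19 changes were above 0 and 20 below, with a median of −0.02, beside a median over all genes of 0.03 in the spot intensities and −0.03 in the value table.

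**Figure D1:**
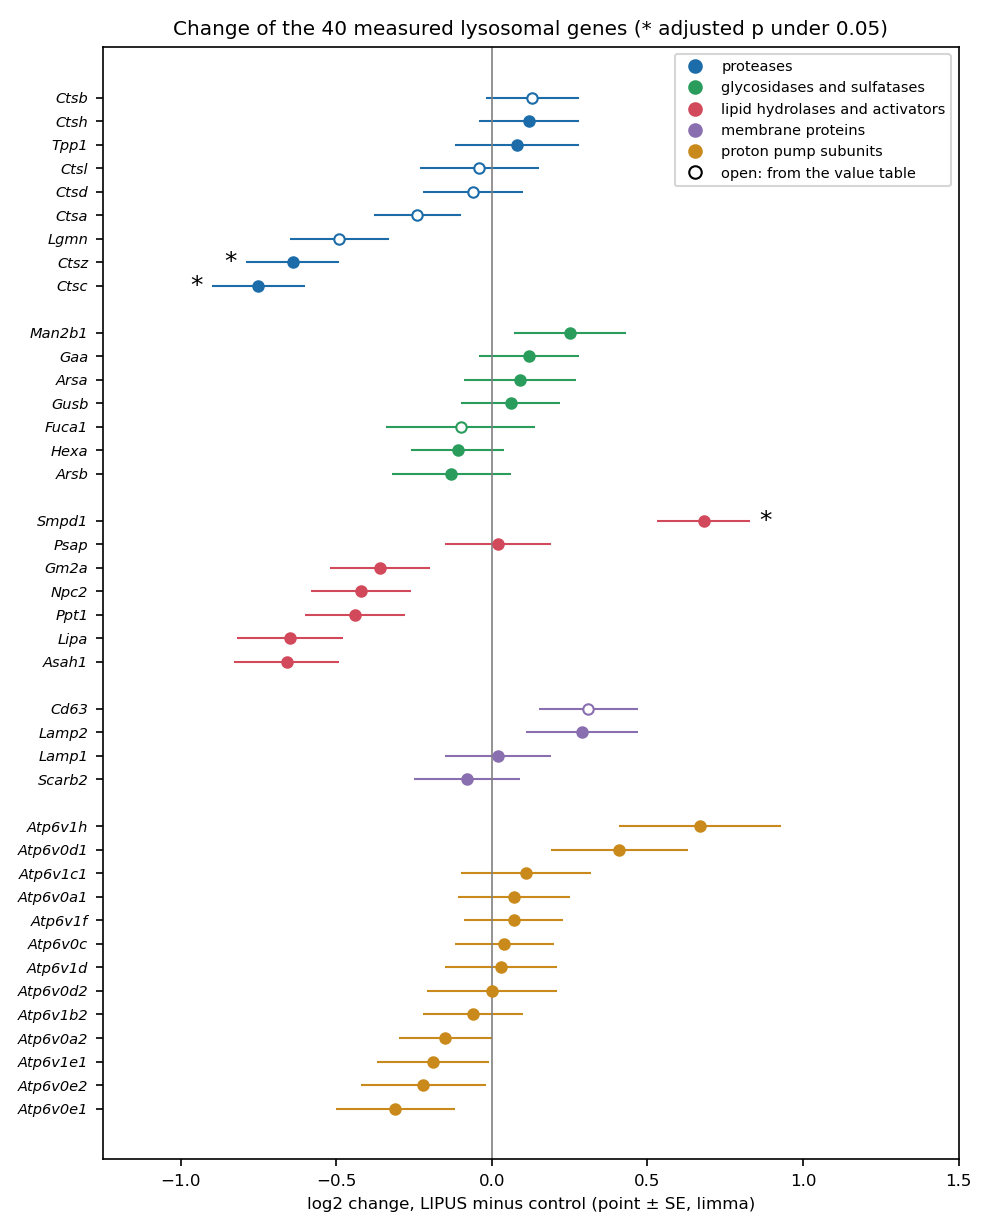
Log2 change of each of the 40 measured genes, LIPUS minus control, as point and SE from limma, grouped by role, with open points for genes taken from the value table. Asterisks mark Ctsc, Ctsz and Smpd1, the only genes with an adjusted p under 0.05, and the remaining points lie between −0.66 and 0.67.

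Proteases were measured in full, all 9 of 9. Of these 2 were called lower, none higher (no protease had an unadjusted p under 0.05 in that direction), and the changes ran from −0.75 to 0.13 with a median of −0.06, or −0.24 without the 2 genes, Ctsb and Ctsd, that were at the limit in both sources. Ctsc (NM_017097), a dipeptidyl peptidase that activates the serine proteases of immune cell granules, had log2 levels of 3.29, 3.27 and 3.18 in control and 2.49, 2.46 and 2.55 in LIPUS. All LIPUS values lay below all control values, with a wide gap between the groups. The means were 3.25 ± 0.06 and 2.50 ± 0.04 (SD, n = 3 each), a change of −0.75 ± 0.15 (SE; limma adjusted p = 0.0183). Ctsz (NM_183330), a carboxypeptidase, stood at 3.10, 3.20 and 3.18 in control and 2.46, 2.45 and 2.65 in LIPUS. Here too the groups did not overlap, and the change was −0.64 ± 0.15 (SE; limma adjusted p = 0.0389). Both calls rested on the spot intensities: in the value table the change was −0.76 for Ctsc and −0.56 for Ctsz, with limma adjusted p of 0.105 and 0.106.

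Lgmn (NM_022226), the asparagine-specific endopeptidase legumain, reached the scanner limit on control 3 and was read from the value table, at 6.21, 5.83 and 5.94 in control and 5.54, 5.41 and 5.56 in LIPUS. The groups did not overlap, and the change of −0.49 ± 0.16 did not pass (limma adjusted p = 0.163). Ctsa (NM_001011959), the carboxypeptidase that protects neuraminidase and beta-galactosidase, stood at 7.11, 7.33 and 7.24 in control and at 7.04, 6.94 and 6.99 in LIPUS. These groups lay just apart, with a change of −0.24 ± 0.14 (limma adjusted p = 0.395), and a dimmer probe of Ctsa, at the limit on 1 array, gave −0.06 in the same table.

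The other proteases had smaller changes. Ctsh (NM_012939), an aminopeptidase, was at 5.80, 5.56 and 5.53 in control and 5.78, 5.78 and 5.70 in LIPUS, so the groups overlapped, and its change was 0.12 ± 0.16. Ctsl (NM_013156), a cysteine endopeptidase, was at the limit on 4 arrays and had a change of −0.04 ± 0.19 in the value table, with overlapping groups. Its other probe, under the limit on every array, was at 5.22, 5.48 and 5.22 in control and 5.59, 5.53 and 5.50 in LIPUS. On that probe the groups were apart with LIPUS higher, and its change of 0.23 in the spot intensities (limma adjusted p = 0.430) and 0.20 in the value table did not pass, so no direction is given for Ctsl. Tpp1 (NM_031357), a tripeptidyl peptidase, had a change of 0.08 ± 0.20, with control 3 at 2.82 above all other arrays. Ctsb and Ctsd, an endopeptidase of each of the cysteine and aspartic classes, saturated the scanner on all 6 arrays in the spot intensities and reached the limit on the 3 control arrays in the value table. Their control levels are therefore lower bounds. The measured differences, 0.13 for Ctsb and −0.06 for Ctsd, can only be upper bounds of the change, which leaves Ctsd at least 1.04-fold higher in control by the means alone, well within its error.

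**Figure D2:**
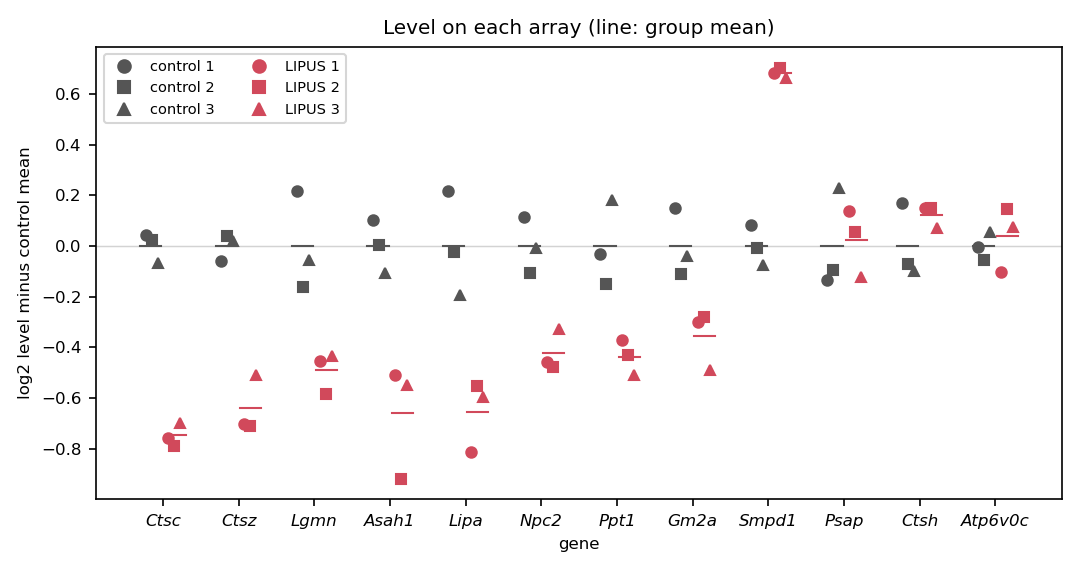
Log2 level on each array minus the gene's control mean for 12 genes, with grey symbols for control, red for LIPUS and short lines for group means; Lgmn is from the value table and the others from spot intensities. LIPUS arrays lie below all control arrays from Ctsc to Gm2a and above them in Smpd1. They lie among them in Psap and Ctsh, and on both sides of them in Atp6v0c.

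The lipid enzymes and their helper proteins, with 7 of 8 measured, were the group with the widest spread. Smpd1 was called higher and none lower, while 4 had an unadjusted p under 0.05 in the lower direction (limma), and the median change was −0.42, with a range of −0.66 to 0.68. Smpd1 (NM_001006997), the acid sphingomyelinase that turns sphingomyelin into ceramide, was at 5.63, 5.54 and 5.47 in control and 6.23, 6.25 and 6.21 in LIPUS. Every LIPUS value lay above every control value. The means were 5.55 ± 0.08 and 6.23 ± 0.02 (SD, n = 3 each), a change of 0.68 ± 0.15 (SE; limma adjusted p = 0.0268). Raw brightness of this probe on the LIPUS arrays, 52677 to 62861, came close to the limit of 65535, against 34973 to 46229 in control. The value table, which has more room there, gave 0.84 ± 0.15 (limma adjusted p = 0.0391).

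The next enzyme of that pathway had lower values in LIPUS. Asah1 (NM_053407), the acid ceramidase that splits ceramide, was at 2.53, 2.43 and 2.32 in control and 1.92, 1.51 and 1.88 in LIPUS. All 3 LIPUS values were below the controls, and the change of −0.66 ± 0.17 just missed the threshold (limma adjusted p = 0.0544). Lipa (NM_012732), the acid lipase of cholesteryl esters and triglycerides, was at 3.33, 3.09 and 2.92 in control and 2.30, 2.56 and 2.52 in LIPUS. Its groups were also apart, with a change of −0.65 ± 0.17 (limma adjusted p = 0.0552). Both genes passed when only probes above background on all 6 arrays were tested, with adjusted p of 0.0259 and 0.0265, over a smaller number of genes. With the inferred slide as a fixed block, described further on, their changes were −0.56 and −0.46 (limma adjusted p of 0.294 and 0.338), and with it as a random block the adjusted p was 0.0987 and 0.108.

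Npc2 (NM_173118), which carries cholesterol in the lumen, was at 4.95, 4.73 and 4.83 in control and 4.38, 4.36 and 4.51 in LIPUS. Ppt1 (NM_022502), which removes palmitate from proteins, was at 4.33, 4.21 and 4.54 against 3.99, 3.93 and 3.85. Gm2a (NM_172335), the ganglioside activator protein, was at 2.39, 2.13 and 2.20 against 1.94, 1.96 and 1.75. In all 3 genes the groups did not overlap, yet none passed: the changes were −0.42 ± 0.16, −0.44 ± 0.16 and −0.36 ± 0.16, with limma adjusted p of 0.150, 0.149 and 0.230. Psap (NM_013013), the precursor of the saposins, overlapped between groups and had a change of 0.02 ± 0.17.

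Glycosidases and sulfatases, which take apart sugar chains, were measured for 7 of 11 genes. None was called (limma), none had an unadjusted p under 0.05, and no gene's groups were apart. The median change was 0.06, with a range of −0.13 to 0.25. Man2b1 (NM_199404), the lysosomal alpha-mannosidase, was at 1.54, 1.53 and 2.00 in control and 1.93, 1.96 and 1.92 in LIPUS. Control 3 lay above the LIPUS arrays and the other controls below, and the change was 0.25 ± 0.18 (limma adjusted p = 0.461). Gaa (NM_199118), the glucosidase that degrades glycogen, was at 2.58, 2.59 and 2.75 against 2.66, 2.78 and 2.84, overlapping, with a change of 0.12 ± 0.16.

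The others stayed within that range in the source used. Gusb (NM_017015), the beta-glucuronidase, had a change of 0.06 ± 0.16 and Hexa (NM_001004443), the alpha subunit of beta-hexosaminidase, of −0.11 ± 0.15. The sulfatases Arsa (NM_001034933) and Arsb (NM_033443) had changes of 0.09 ± 0.18 and −0.13 ± 0.19, and the other probe of Arsa gave 0.24. In the value table Arsb stood at −0.60 ± 0.41 and Hexa at −0.26 ± 0.18, below the range given above, while Arsa, Gaa, Gusb and Man2b1 stayed within it. Fuca1 (NM_012562), the alpha-fucosidase, was at the limit on all spot arrays and had a change of −0.10 ± 0.24 in the value table, where its control values spread from 6.90 to 7.73. Its other probe gave 0.03 in the same table. The 95% interval of the change stayed within 1.5-fold in either direction for 5 of the 7 genes and within 2-fold for all 7.

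Proton pump subunits were measured for 13 of 29 symbols, 6 of the V1 and 7 of the V0 sector. None was called (limma), 1 had an unadjusted p under 0.05, and the median change was 0.03, with 0.05 for V1 and 0 for V0. For 12 of the 13 the 95% interval lay within 2-fold, and for 8 within 1.5-fold. Atp6v1h (NM_001013929), a regulatory V1 subunit, was at −2.54, −1.54 and −2.14 in control and −1.42, −1.09 and −1.71 in LIPUS. These are dim values, above background on 5 arrays, with overlapping groups and a change of 0.67 ± 0.26 (limma adjusted p = 0.175). Without it and Atp6v0d2, also below background on some arrays, the changes of the 11 remaining subunits ran from −0.31 to 0.41.

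Atp6v0d1 (NM_001011927), the V0 subunit that joins both sectors, was at 2.95, 2.66 and 3.43 in control and 3.60, 3.36 and 3.30 in LIPUS. Control 3 lay among the LIPUS arrays, and the change was 0.41 ± 0.22 (limma adjusted p = 0.304). Atp6v0e1 (NM_053578), a small V0 subunit, had a change of −0.31 ± 0.19, with control 3 at 5.04 beside 5.62 and 5.60 in the other controls. Atp6v0c (NM_130823), which forms most of the proton-carrying ring, was at 4.30, 4.25 and 4.36 against 4.20, 4.45 and 4.38, overlapping. Its change was 0.04 ± 0.16.

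The V1 subunits Atp6v1b2 (NM_057213), a nucleotide-binding subunit, Atp6v1c1, Atp6v1d, Atp6v1e1 and Atp6v1f had changes of −0.06, 0.11, 0.03, −0.19 and 0.07. In the value table Atp6v1d and Atp6v1e1 had the opposite sign, at −0.16 and 0.20, so no direction is given for them. A dimmer probe of Atp6v1b2 gave 0.33, with groups apart and LIPUS higher, and Atp6v0c was likewise apart in the value table, at 0.21. On the probe and source used, the V0 subunit Atp6v0a2 (NM_053775) was the only pump gene with groups apart. It stood at −1.17, −1.26 and −1.20 against −1.40, −1.36 and −1.31, a change of −0.15 ± 0.15. Its other probe, above background on 4 arrays, was apart with LIPUS higher, at 0.90 (limma adjusted p = 0.0735). The value table gave 0.48 for the probe used, so no direction is given for Atp6v0a2. Atp6v0d2 (NM_001011972), the V0 isoform of osteoclasts and macrophages, had a change of 0.00 ± 0.21 at a level near background on both groups' arrays.

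Membrane proteins were measured for 4 of 7 genes, with none called (limma, and none with an unadjusted p under 0.05) and a median change of 0.16. Cd63 (NM_017125), a tetraspanin of late endosomes, was at 6.93, 7.14 and 6.81 in control and 7.22, 7.25 and 7.36 in LIPUS in the value table. The groups were apart, with LIPUS higher, and the change of 0.31 ± 0.16 did not pass (limma adjusted p = 0.313). Lamp2 (NM_017068), a receptor of chaperone-mediated autophagy in one of its forms, was at 2.81, 2.58 and 3.10 against 3.18, 3.06 and 3.14, overlapping through control 3. Its change was 0.29 ± 0.18 (limma adjusted p = 0.370). Lamp1 (NM_012857) and Scarb2 (NM_054001), the transport receptor of glucocerebrosidase, had changes of 0.02 ± 0.17 and −0.08 ± 0.17.

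Side by side, the mean over the genes of each role, set against the control mean, separated the arrays by group in some roles. Protease means were −0.01 to 0.02 on control arrays and −0.23 to −0.18 on LIPUS arrays. The 7 cathepsins alone were at −0.07 to 0.09 and −0.22 to −0.19, with Ctsb and Ctsd entered at their bounds. These means do not describe every protease: Ctsc, Ctsz and Lgmn had changes of −0.75, −0.64 and −0.49. The remaining proteases ran from −0.24 (Ctsa) to 0.13 (Ctsb). Lipid enzyme means were −0.07 to 0.07 and −0.28 to −0.23. Glycosidase means overlapped, at −0.04 to 0.03 and −0.07 to 0.09, and so did pump means, at −0.02 to 0.03 and 0.02 to 0.07. Membrane protein means were −0.09 to 0.08 and 0.11 to 0.15. The difference between cathepsins, glycosidases and pump was not tested, since genes of 1 array are not replicates and the genes were chosen with earlier results known.

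Markers of other cell types were measured in these cultures too. Of 10 endothelial markers 4 were measured, while Pecam1 and Emcn were too dim and 4 had no probe with the symbol. The mean of the 4 measured was −0.05 to 0.03 on control and −1.22 to −1.10 on LIPUS arrays, with 3 called lower. The mean of 16 macrophage markers was −0.03 to 0.06 on control arrays and −1.34 to −1.09 on LIPUS arrays, with 12 of the 16 called lower, and Cx3cr1 too dim to measure. The mean of 12 osteoblast markers was −0.04 to 0.04 and 1.19 to 1.32, with 8 called higher. Of 13 osteoclast markers 4 were measured, none was called (limma, and none had an unadjusted p under 0.05), and Acp5, Ctsk, Clcn7 and Car2 had changes of 0.23, 0.11, 0.14 and −0.26, while Calcr, Ocstamp, Mmp9 and Itgb3 were too dim. The mean of 7 mast cell markers was −0.08 to 0.07 on control and −0.51 to −0.23 on LIPUS arrays, with 2 changes above 0 and 5 below. Of these markers only Cma1 was called, and it was lower (−1.18, limma adjusted p = 0.0055). Means of 6 adipocyte markers were −0.07 to 0.05 and 0.02 to 0.12, with 3 changes above 0 and 3 below. Cidec was called higher (1.09, limma adjusted p = 0.00807). Cfd, at the limit on 1 array of the value table, went the other way there and was not called (−0.77, limma adjusted p = 0.0609). Of 2 granulocyte markers, with means of −0.13 to 0.25 and 0.22 to 0.69, S100a8 was called higher (0.99, limma adjusted p = 0.0209). The 4 T cell markers had means of −0.25 to 0.22 and 0 to 0.23. Epor, the 1 erythroid marker measured, was at −0.10 to 0.11 and −0.09 to 0.61, with no call in either list (limma). Cd4 (−0.91, limma adjusted p = 0.0504) and Cd2 (0.60, limma adjusted p = 0.195) went in opposite directions, each with an unadjusted p under 0.05. No B cell marker was measured. The part of these cell types' genes in the lower Ctsc and Ctsz and the higher Smpd1 was not tested.

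**Figure D3:**
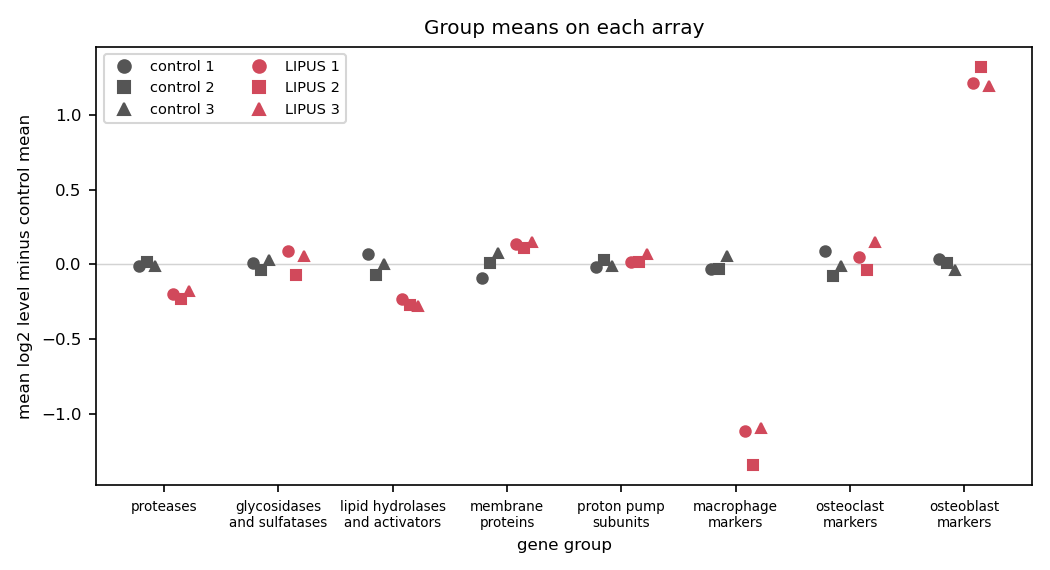
Mean log2 level of each group of genes on each array minus its control mean, for the lysosomal groups and for markers of macrophages, osteoclasts and osteoblasts; grey symbols are control arrays and red symbols LIPUS arrays. Protease and lipid enzyme means lie between −0.28 and −0.18 on LIPUS arrays, whereas macrophage markers lie between −1.34 and −1.09 and osteoblast markers between 1.19 and 1.32.

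Among 156 other lysosome and autophagy genes, 80 gave an estimate. None was called higher and 5 lower (6.25%), against 2.89% and 3.74% of all genes tested, and 19 had an unadjusted p under 0.05 (limma). The median change was −0.08, with 33 above 0 and 47 below. The 5 were Naaa (NM_001010967; −1.03 ± 0.24), an acid amidase, Abca2 (NM_024396; −0.91 ± 0.16), a lipid transporter, Slc15a3 (NM_139341; −0.93 ± 0.17), a peptide transporter, Slc11a1 (NM_001031658; −0.93 ± 0.21), the metal transporter of phagocytes, and Cd68 (NM_001031638; −0.95 ± 0.13, value table). Their limma adjusted p-values were 0.0315, 0.0106, 0.0121, 0.0322 and 0.0231. Cd68, a membrane protein of macrophage lysosomes, is also 1 of the 16 macrophage markers.

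The remaining lists had no call. Of the other cathepsins Ctss (−0.69 ± 0.18, value table) and Ctse (−0.70 ± 0.23) were lower in value and Ctsk (0.11 ± 0.20) and Ctsf (0.04 ± 0.18) were near 0, with limma adjusted p of 0.10, 0.114, 0.800 and 0.932. The 13 autophagy genes had a median change of 0.12 and the 8 genes of transcription and nutrient signalling 0.07, among them Tfeb at 0.11 (limma adjusted p = 0.858) and Rraga, a Rag GTPase, at 0.61 ± 0.19 (0.0911). Of 2 pump partners with other names, Atp6ap1 had a change of −0.14 and Rogdi of 0.27. The 11 sorting genes had a median of −0.08, and the pair with the smallest unadjusted p, Vps33a and Rab7a, stood at −0.51 and −0.60 (limma adjusted p of 0.126 and 0.129).

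The slide an array lay on is not stated in the labels and was inferred here. By the tilt of the scanned grid, control 1 and control 2 were assigned to 1 slide and control 3 with the 3 LIPUS arrays to another. Inferred slide and group thus overlap in part. With the slide as a fixed block, which compares control 3 alone with the LIPUS arrays, Ctsc had a change of −0.68 (limma adjusted p = 0.130), Ctsz of −0.66 (0.160) and Smpd1 of 0.76 (0.101). No call was kept, and each size was within 0.15, 1 SE, of that over all arrays. With the slide as a random block Ctsc (adjusted p = 0.0330) and Smpd1 (0.0389) passed and Ctsz (0.0609) did not. Atp6v0d1 moved from 0.41 to −0.01 with the fixed block, Fuca1 from −0.10 to 0.35 and Tpp1 from 0.08 to −0.34.

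**Figure D4:**
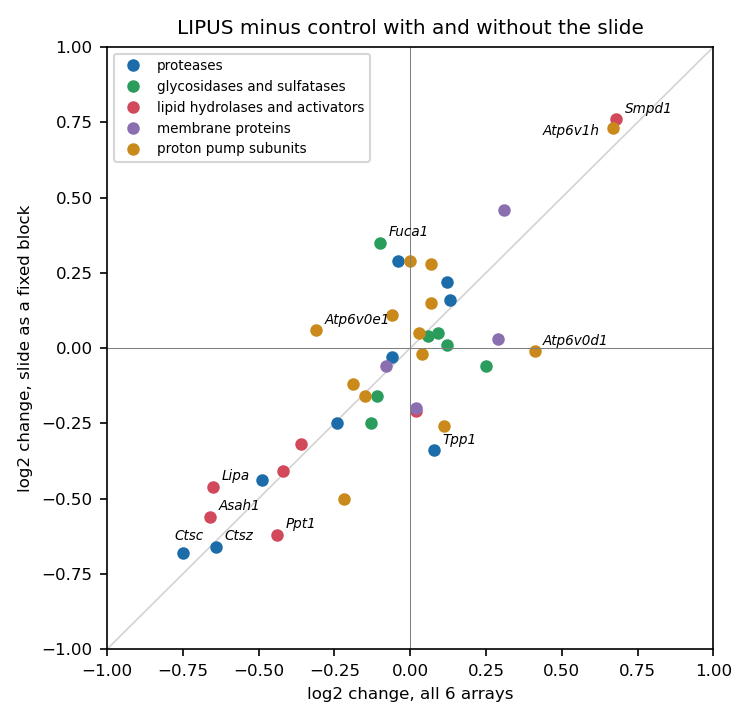
Log2 change of the 40 genes over all arrays (x axis) against the change with the inferred slide as a fixed block (y axis), coloured by role, with the line of equal change. Ctsc, Ctsz, Asah1, Lipa, Ppt1 and Smpd1 keep their sign and lie near the line, whereas Fuca1, Tpp1 and Atp6v0e1 change sign.

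Leaving out control 3 was also the only omission of 1 array under which any of the 3 calls held. Ctsc then had −0.78 (limma adjusted p = 0.0215), Ctsz −0.63 (0.0460) and Smpd1 0.65 (0.0359). Control and LIPUS were then wholly on different inferred slides, so that slide and group cannot be told apart there. Over all 6 omissions Ctsc ran from −0.78 to −0.73, with adjusted p up to 0.0748. Ctsz ran from −0.70 to −0.61, with adjusted p up to 0.134, and Smpd1 from 0.65 to 0.73, with adjusted p up to 0.0952. The direction of each was the same throughout.

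The scaling sets where 0 lies. Scaled to the arrays' spike-in controls, of which only 5 probes could be used, the median over all genes moved to −0.32, from 0.03. The share of higher calls among all calls moved from 43.6% to 5.17%. The group medians moved with it, to −0.32 for pump subunits, −0.29 for glycosidases, −0.20 for membrane proteins, −0.42 for proteases and −0.78 for lipid enzymes, and 7 members were called lower and none higher, all 7 lower ones being proteases or lipid enzymes. Under that scaling Smpd1 stood at 0.33 (limma adjusted p = 0.310). Centring on the median instead gave a share of higher calls of 32.3%, and the same centring of the value table moved that share from 35.7% to 50.1% and the median of all genes there to 0.15.

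**Figure D5:**
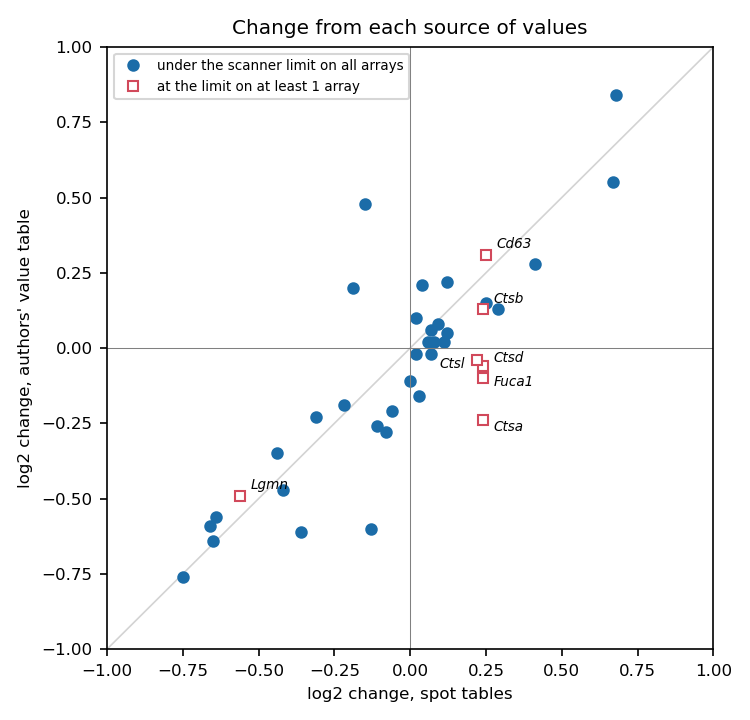
Log2 change from the spot intensities (x axis) against that from the authors' value table (y axis) for the 40 genes, with red squares for the 7 at the scanner limit on at least 1 array. For the 33 under the limit, 27 have the same sign in both and the median gap is 0.09, whereas 6 of the squares lie between 0.22 and 0.25 on the x axis, and Lgmn, at the limit on 1 array, at −0.56.

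The sources could be compared gene by gene. For the 33 genes under the limit the sign was the same in both sources for 27, with a median gap of 0.09 and a gap above the SE for 9. Spots at the limit on all 6 arrays give the same spot value, so Ctsa, Ctsb, Ctsd, Fuca1 and Cd63 would each change by 0.24 or 0.25 from spot intensities. The value table gave −0.24, 0.13, −0.06, −0.10 and 0.31.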

How the data were processed

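The series was measured on 6 single-colour arrays, 3 control and 3 LIPUS, grouped by the labels. Per the file headers, the deposited spot tables give brightness as intensity with no normalization, and spot position as a score. The values that the authors processed and deposited in a further table are on a log2 scale with the 75th percentile at 0 in every column, as read from the values; further steps were not given in the sources used here.

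Here, intensities were corrected with limma's normexp (offset 50), put on the log2 scale, averaged over spots of 1 probe and set relative to the array's 75th percentile. Probes above the 95th percentile of 153 negative control spots on at least 3 arrays were kept (23260 probes). Symbols were taken from RefSeq accessions, and the kept probe with the highest mean stood for a symbol. A member at 99% or more of the scanner limit of 65535 on any array took its value from the value table, where 90% of a column's maximum counted as the limit. LIPUS and control were compared with limma 3.58.1 (lmFit and eBayes, R 4.3.3), two-sided, over 21847 genes or unnamed probes, 5697 of them with a symbol, at a Benjamini-Hochberg adjusted p under 0.05. The fit was tested on simulated data. Tables were read in R (package data.table, version 1.17.8; jsonlite, version 2.0.0), and plots drawn with matplotlib 3.10.9 in Python 3.11.15. The number of arrays limits the precision.

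Members and lists were chosen with earlier results of these data known. Every member could be named; called members and the 2 of each role with the smallest unadjusted p have their value on each array, and some others whose groups lay apart were added after their values were seen. Of the other lists, called genes and up to 4 with the smallest unadjusted p could be named, beside Tfeb, chosen after its value was seen. Alternatives covered background correction, scaling, filter, probe, source of values, slide, replicate block and each array left out.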

Additional observations from a re-analysis of the deposited data

How the results depend on the processing

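Of 798 member values under 20 alternatives, 669 kept call and direction or, if uncalled, moved by less than 1 SE of the reported change. Another 87 moved further, 32 lost a call and 10 gained one. Only Ctsc, Ctsz and Smpd1 had a call to lose, and theirs held in 11, 7 and 10 of the 20 alternatives. No called value changed sign, 90 uncalled values did, and 13 members kept their sign throughout. Counts of calls come from limma. Calls over all genes (1449 in the spot intensities, 805 in the value table) became 3832 and 1497 with spike-in scaling, 655 and 0 with no filter on dim probes, 282 and 0 with the slide as a fixed block, and 0 and 0 on the slide holding both groups (4827 and 4626 unadjusted p under 0.05 in the reported fits, 3339 and 2816 on that slide). The value table also gave 499 with median centring, 1552 above background on all 6 arrays and 494 with the slide as a random block. With 1 array left out the counts were 642 to 2168 and 0 to 615.

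The members called higher (1) became 0, and those called lower (2) became 0, with no filter, the slide as a fixed block and the slide holding both groups. With spike-in scaling they became 0 and 7. Those called lower became 1 with no background correction, 1 with subtracted background, 1 with the random slide block, 4 with median centring, 4 above background on all arrays and 0 from the value table alone. With 1 array left out they were 0 to 1 and 0 to 3. The counts of 0 had 0 to 2 unadjusted p under 0.05 in the higher and 3 to 8 in the lower direction.

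Median changes moved as follows. Proteases (−0.06) were at 0.03 with median centring, −0.17 with quantile normalization, −0.42 with spike-in scaling, 0.12 from spot intensities alone and −0.25 with the fixed slide block and on that slide, and −0.20 to −0.04 with 1 array left out. Glycosidases (0.06) were at −0.29 with spike-in scaling and −0.02 to 0.09 with 1 array left out. Pump subunits (0.03) were at 0.06 with subtracted background and with quantile normalization, −0.03 with median centring, −0.32 with spike-in scaling, 0 with the probe of smallest change and −0.03 to 0.03 with 1 array left out. Membrane proteins (0.16) were at −0.20 with spike-in scaling, −0.02 with the fixed slide block and on that slide, and 0.09 with the random block. Lipid enzymes (−0.42) were at −0.48 with median centring, −0.78 with spike-in scaling and −0.47 to −0.36 with 1 array left out. The other lysosome genes called (5) became 3 with no background correction, with subtracted background and with quantile normalization, 20 with spike-in scaling, 2 with no filter, 8 above background on all arrays, 0 with the fixed slide block and on that slide (11 and 10 unadjusted p under 0.05), and 1 to 8 with 1 array left out. The cause of these shifts was not tested.

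With the replicate number as a block, 0 members were called higher, 1 lower (Ctsc, adjusted p = 0.0443), 3 of the other lysosome genes, and 0 genes in the value table (4101 unadjusted p under 0.05). Deviations of same-numbered control and LIPUS arrays from their group had correlations of −0.01 to 0.01 across genes, against −0.02 to 0.02 for differently numbered ones. Not every array correlated best with its own number. Whether same-numbered samples share an animal or a culture is not stated in the labels and was not tested. Signal limits the dimmest pump subunits and saturation the brightest cathepsins.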
